A study of Mus musculus with 6 samples.

Results

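The 10 genes described here encode the pore-forming subunits of the AMPA receptor (Gria1, Gria2, Gria3 and Gria4) and the NMDA receptor (Grin1, Grin2a, Grin2b, Grin2c, Grin2d and Grin3a). They were taken as a fixed list of GENCODE symbols and matched to Ensembl identifiers, and all 10 were found among the 55335 gene identifiers in the count files. RNA-seq had been run on the striatum of C57 mice, with 3 PDE5A overexpression samples (labelled OE, genotype PDE5A Overexpressing) and 3 control samples (labelled NC, genotype WT). The means of overexpression, the treatment of the controls, and the age and sex of the mice were not stated in the labels. Nor do they say whether each sample was a separate animal, and the spread behind the p-values may therefore be technical.

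AMPA and NMDA receptors are glutamate-gated channels assembled from separate subunits, and the subunit mix sets their kinetics and calcium permeability. AMPA receptors carry the fast excitatory current. NMDA receptors need both glutamate and a co-agonist, are blocked by magnesium at rest, and let in the calcium that triggers synaptic plasticity. In the striatum both receive input from cortex and thalamus onto medium spiny neurons, the principal striatal cells.

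The low calcium permeability that GluA2, the product of Gria2, gives a channel rests on 1 codon of the pore loop. There RNA editing by ADAR2 recodes the gene-encoded glutamine to arginine and makes receptors that hold it poorly permeable to calcium. The 42 bases around that codon are shown for the 4 AMPA genes to place the site and to show how alike the genes are there. The sequences are GENCODE release M21 transcripts, 5′ to 3′ on the sense strand, with the codon in capitals.
Gria1: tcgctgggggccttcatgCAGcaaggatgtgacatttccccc
Gria2: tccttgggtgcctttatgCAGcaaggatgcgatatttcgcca
Gria3: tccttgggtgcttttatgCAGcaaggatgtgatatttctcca
Gria4: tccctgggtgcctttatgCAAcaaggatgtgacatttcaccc
In mm10 these windows lie at chr11:57243076-57243117 on the plus strand for Gria1, chr3:80706890-80706931 on the minus strand for Gria2, chrX:41610247-41610288 on the plus strand for Gria3 and chr9:4464116-4464157 on the minus strand for Gria4. Each is within a coding exon, and the Gria2 codon occupies 80706911 to 80706913. From the Gria2 window, Gria3 differs at 3 bases, Gria4 at 6 and Gria1 at 8. Counts per gene hold no base calls, so the edited share of Gria2 could not be read from them. Over whole transcripts at most 0.159% of the 50-base words of any of the 10 genes also occurred in another of them, and that highest value was for Gria4, so the subunits' counts are largely separable by sequence.

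Library totals ran from 33013698 to 42288789 counts, and the lowest count of any of the 10 genes in any library was 381, for Grin2d. Pde5a, which checks the labels, had 760, 700.5 and 592 CPM (counts scaled to library sizes adjusted by TMM) in overexpression replicates 1 to 3, against 3.72, 4.14 and 6.09 CPM in control. The tissue label was checked with 14 medium spiny neuron markers, each of which had at least 52.98 CPM in every library. The libraries differed in the markers of other cells, both within and between groups. The mean log2 CPM of 14 markers of glutamatergic cortical neurons was 4.39, 4.96 and 6.05 in overexpression replicates 1 to 3 and 4.99, 3.30 and 5.63 in control replicates 1 to 3. The same measure for 12 choroid plexus markers was 3.08, 5.24 and 0.68 in overexpression and 1.41, 0.95 and 0.86 in control. Fold changes, overexpression over control, were above 0 for 14 of the 14 cortical markers (median 0.38 on the log2 scale) and 12 of the 12 choroid plexus markers (median 3.22), and 0 of either list passed the threshold. The mean level of 11 thalamic neuron markers was lower in each overexpression library, at 2.68, 3.10 and 3.01 log2 CPM, than in each control library, at 3.52, 3.30 and 3.30, with 10 of the 11 fold changes below 0 and 0 past the threshold. The part of the thalamic level in the subunit values was not tested.

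No receptor subunit differed between the groups past the threshold. By the quasi-likelihood test of edgeR, 0 of the 10 genes had a Benjamini-Hochberg adjusted p under 0.05, and 1 of all 19809 genes tested, Pde5a, did (0.00505%). At an unadjusted p under 0.05 the count was 0 of 10, where 3.89% of all genes passed. That count depended on the model. Grin2a was under 0.05 with the replicate number as a block (4.56% of all genes), and Grin1 and Grin2a were when the choroid plexus level entered as a covariate (4.60% of all genes). Grin2a was also under 0.05 with overexpression replicate 3 set alone against the 3 controls (7.13% of all genes), where the spread comes from the controls only. With the choroid plexus covariate the log2 fold changes were 0.25 (SE 0.10) for Grin1 and 0.31 (SE 0.13) for Grin2a. The adjusted p in edgeR's quasi-likelihood test was 0.950 for both. With the cortical level as covariate instead, they were 0.14 (SE 0.09) for Grin1 and 0.09 (SE 0.07) for Grin2a, and 0 of the 10 subunits had an unadjusted p under 0.05 (5.41% of all genes). The DESeq2 Wald test called 0 of 10, where it called 0.419% of all genes, and limma-voom called 0 of 10, where it called 0.0252%. Expression in the overexpression libraries lay wholly above or wholly below that in control for 0 of the 10 genes, where 8.93% of all genes did. Log2 fold changes of the subunits, overexpression over control, ran from −0.09 for Grin2d to 0.17 for Grin2a, with 3 above 0, 7 below 0 and a median of −0.01. Over all genes tested, 50.6% had a fold change above 0 and the median was 0.00158.

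**Figure D1:**
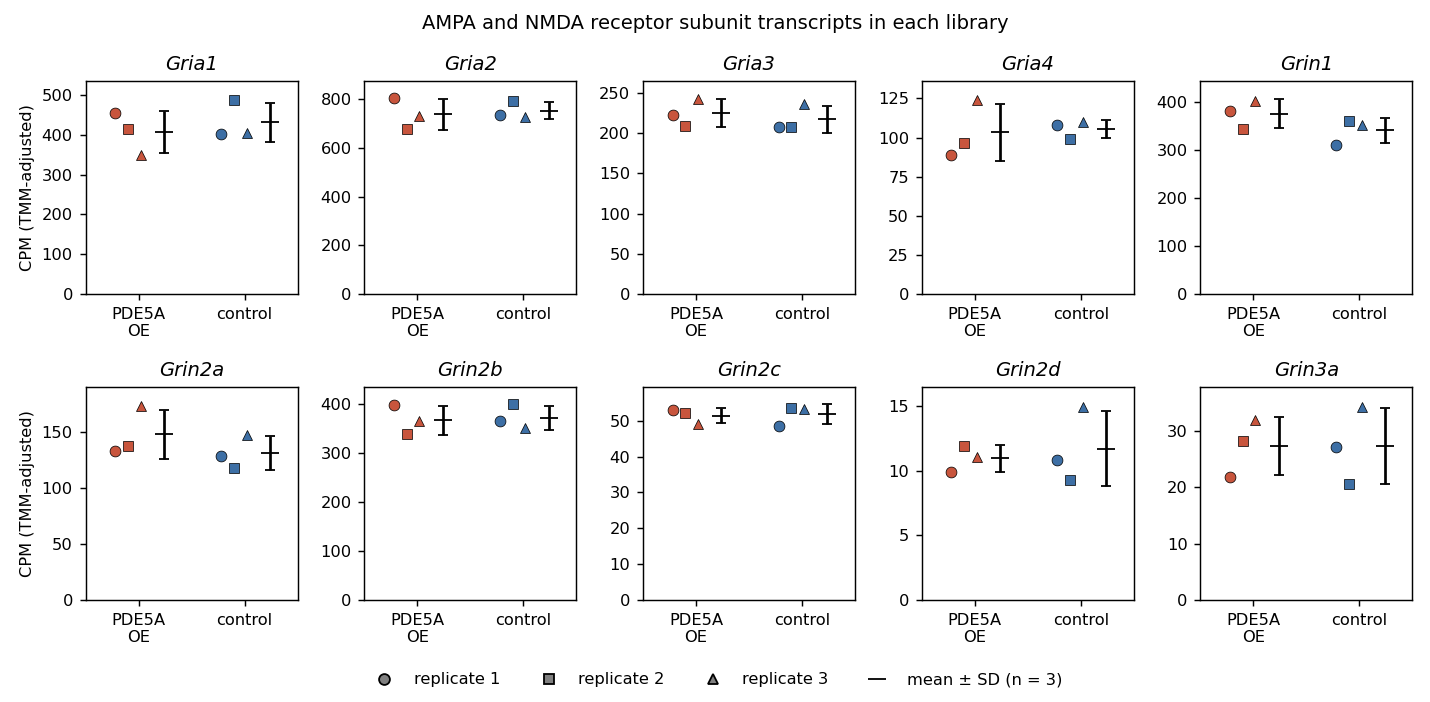
TMM-adjusted CPM of the 10 receptor subunit genes on linear axes starting at 0, with 1 point per library (symbol shape for the replicate number), PDE5A overexpression (OE) in red on the left and control in blue on the right of each panel, and bars for mean ± SD (n = 3). The ranges of the groups overlap in all 10 panels.

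Among the AMPA subunits, Gria2 was the one with the most counts. It had 804, 679 and 731 CPM in overexpression replicates 1 to 3 and 736, 793 and 730 CPM in control replicates 1 to 3. The lowest and the highest of these 6 values were both in overexpression. The log2 fold change was −0.03 (SE 0.09), and its 95% interval in fold ran from 0.851 to 1.13.

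Gria1 encodes GluA1, the subunit best known for activity-dependent insertion at synapses. It had 455, 415 and 350 CPM in overexpression and 401, 488 and 404 CPM in control. Overexpression replicate 3 was the lowest library and control replicate 2 the highest. The log2 fold change was −0.08 (SE 0.12), with a 95% interval in fold of 0.776 to 1.15.

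Gria3 encodes GluA3, a common partner of GluA2, from the X chromosome. It had 223, 209 and 243 CPM in overexpression and 207, 208 and 237 CPM in control. Replicate 3 was the highest in both groups. Its log2 fold change was 0.05 (SE 0.09). Gria4, whose product GluA4 is prominent in fast-spiking interneurons, had 88.9, 96.9 and 124 CPM in overexpression and 108, 99.05 and 110 CPM in control. The overexpression libraries spanned both extremes, with an SD of 18.4 CPM against 5.76 in control (n = 3 each). The log2 fold change of Gria4 was −0.03 (SE 0.12).

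Grin1 encodes GluN1, the subunit that every NMDA receptor contains. It had 382, 344 and 403 CPM in overexpression and 311, 360 and 352 CPM in control. The overexpression mean was higher, at 376 ± 30.0 CPM against 341 ± 26.4 CPM in control (SD, n = 3 each), but overexpression replicate 2 fell below 2 of the control libraries. The log2 fold change was 0.14 (SE 0.09), with an unadjusted p of 0.161 and an adjusted p of 0.99996 in edgeR's quasi-likelihood test. Its 95% interval in fold was 0.952 to 1.28. The antisense gene Grin1os covers 13.47% of the merged exon bases of Grin1 and held 358 to 601 counts in a library, against 11422 to 15088 for Grin1. The strand setting of the counting is unknown, so reads in that stretch cannot be assigned.

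The Grin2 subunits bind glutamate and set how fast the channel closes. Grin2a encodes GluN2A, which gives faster receptors and gains ground as the forebrain matures. It had 133, 137 and 173 CPM in overexpression and 128, 117 and 147 CPM in control. Replicate 3 was the highest library of each group. The log2 fold change of 0.17 (SE 0.12) was the largest of the 10 genes, with an unadjusted p of 0.203, an adjusted p of 0.99996 in edgeR's quasi-likelihood test and a 95% interval in fold of 0.923 to 1.38. Grin2b encodes GluN2B, which gives slower receptors and prevails early in life. Its level was 399, 340 and 365 CPM in overexpression, against 365, 400 and 351 CPM in control. The group means of Grin2b were 368 ± 29.6 CPM in overexpression and 372 ± 25.0 CPM in control (SD, n = 3 each), a difference smaller than either SD.

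Grin2c, best known from cerebellar granule cells, had the smallest standard error of the 10. It had 52.9, 52.2 and 49.0 CPM in overexpression and 48.6, 53.6 and 53.2 CPM in control, and its log2 fold change was −0.01 (SE 0.07). The 95% interval of its fold, 0.885 to 1.11, was the narrowest of the 10.

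Grin2d, which encodes the slowly deactivating GluN2D of many interneurons, and Grin3a, whose product GluN3A binds glycine and lowers calcium entry, were the least abundant. Grin2d had 9.85, 11.9 and 11.1 CPM in overexpression and 10.8, 9.29 and 14.9 CPM in control. Grin3a had 21.8, 28.2 and 31.8 CPM in overexpression and 27.05, 20.6 and 34.2 CPM in control. For both genes control held the lowest and the highest library. Grin2d had a log2 fold change of −0.09 (SE 0.18) and a 95% interval in fold of 0.702 to 1.25. Grin3a had a log2 fold change of −0.00172 (SE 0.21) and an interval of 0.704 to 1.42, and these were the widest intervals of the 10. The Grin2d count is uncertain, since the gene model Gm45441 on the other strand covers 9.66% of its merged exon bases and held 92 to 136 counts.

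**Figure D2:**
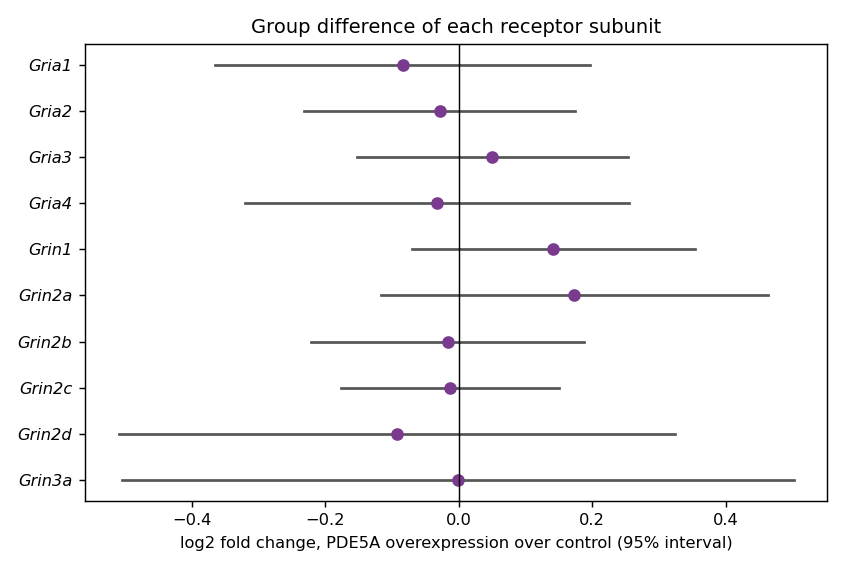
Log2 fold change of each receptor subunit, PDE5A overexpression over control, from edgeR's quasi-likelihood fit (points) with 95% intervals (lines). All 10 intervals cross 0, from the narrowest for Grin2c to the widest for Grin3a.

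Counts and CPM are not scaled to gene length, so levels were also compared between genes per kilobase of merged exons. On that scale Gria1 came first, at 67.3 ± 8.79 CPM per kilobase in overexpression and 71.4 ± 8.19 in control (SD, n = 3 each). Gria2 followed with 47.5 ± 4.05 CPM per kilobase in overexpression and 48.4 ± 2.26 in control, and Grin1 with 38.8 ± 3.09 in overexpression and 35.1 ± 2.72 in control. Below them stood Gria3, Gria4, Grin2b, Grin2c, Grin2a, Grin3a and Grin2d, the last at 1.64 ± 0.155 CPM per kilobase in overexpression and 1.75 ± 0.435 in control. Of the 9 pairs of neighbours in this order, 2 had overlapping ranges in both groups, Gria4 with Grin2b and Grin3a with Grin2d. For the other 7 the order held in 6 of 6 libraries with no overlap within either group. Grin3a was also above Grin2d in 6 of 6 libraries, and Gria4 was above Grin2b in 4 of 6. The order depended on the length used. With the longest annotated transcript in place of merged exons, 5 of the 9 pairs of neighbours were separate in both groups. Grin1 then had the highest mean, at 88.0 ± 7.01 CPM per kilobase in overexpression and 79.7 ± 6.17 in control, and its ranges overlapped those of Gria1 (73.3 ± 9.57 in overexpression, 77.7 ± 8.93 in control). Gria1 in turn overlapped Gria2 (71.2 ± 6.07 in overexpression, 72.6 ± 3.39 in control). Grin2c and Grin2a also overlapped on this length, at 10.5 ± 0.434 and 10.1 ± 1.496 CPM per kilobase in overexpression and 10.6 ± 0.567 and 8.94 ± 1.02 in control, and Grin2a was the higher of the pair in overexpression replicate 3, at 11.8 CPM per kilobase. Gria4 and Grin2b overlapped in overexpression but not in control, and Grin3a and Grin2d were separate in both groups.

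The mix of subunits within a receptor family was measured as shares of length-scaled counts, which do not depend on library scaling. Gria2 made up 31.6%, 29.3% and 31.5% of the 4 AMPA subunits in overexpression replicates 1 to 3 and 31.2%, 30.3% and 30.2% in control. The means were 30.8% ± 1.30 in overexpression and 30.5% ± 0.536 in control (SD, n = 3 each), and an exact two-sided permutation test gave p = 0.8. Gria1 held 43.6% ± 4.20 in overexpression and 44.9% ± 2.63 in control, Gria3 held 14.9% ± 1.45 in overexpression and 13.9% ± 1.48 in control, and Gria4 held 10.7% ± 2.31 in overexpression and 10.6% ± 1.12 in control. Among the 4 Grin2 subunits, Grin2b held 42.4% ± 2.47 in overexpression and 43.7% ± 3.15 in control, and Grin2c held 29.3% ± 1.91 in overexpression and 30.0% ± 0.791 in control. Grin2a held 23.6% ± 3.10 in overexpression and 21.3% ± 2.24 in control, and Grin2d held 4.73% ± 0.587 in overexpression and 5.10% ± 1.18 in control. Each of these differences was smaller than the larger SD of its 2 groups. The shares themselves depended on the length used. Gria1 held 35.4% in overexpression and 36.7% in control with the longest transcript. Without length scaling it held 27.6% in overexpression and 28.6% in control. Grin2c held 27.7% in overexpression and 28.5% in control with the longest transcript. Without length scaling Grin2c held 8.91% in overexpression and 9.14% in control, and Grin2b 63.7% in overexpression and 65.7% in control.

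NMDA receptor maturation is often described by the balance of GluN2A to GluN2B, but the counts are of RNA, not protein. Grin2a made up 31.6%, 35.9% and 39.6% of Grin2a plus Grin2b in overexpression replicates 1 to 3 and 32.7%, 28.9% and 36.7% in control. The difference of 2.90 percentage points between means was smaller than the SD within either group (4.003 in overexpression, 3.89 in control, n = 3 each), and the exact permutation p was 0.5. Single libraries moved this difference, which came to 0.948 percentage points when overexpression replicate 3 was left out and 4.95 when overexpression replicate 1 was, and to 0.971 on leaving out control replicate 2 and 4.86 on leaving out control replicate 3. Grin1 made up 51.1% ± 1.17 of the 6 NMDA subunits in overexpression and 49.0% ± 1.48 in control (SD, n = 3 each), with an exact permutation p of 0.2, the smallest of the 16 shares compared. The Grin1 share depended on the length used, at 67.9% in overexpression and 66.1% in control with the longest transcript. Without length scaling it was 38.3% in overexpression and 36.4% in control. The Grin2a share of Grin2a plus Grin2b moved with the length too. It was 39.7% in overexpression and 36.6% in control with the longest transcript, and 28.6% in overexpression and 26.1% in control without length scaling. After Benjamini-Hochberg adjustment over the 16, no share had a p under 0.853. With 3 samples against 3 this test cannot go below 0.1, so the p-values alone cannot show that the shares were equal.

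**Figure D3:**
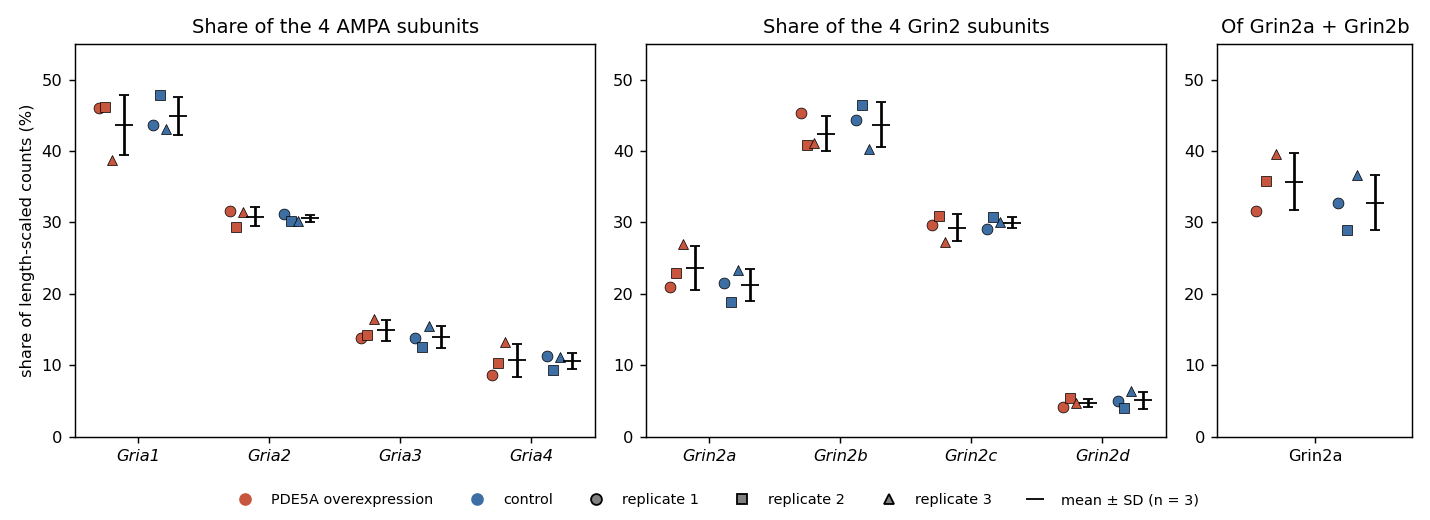
Shares of length-scaled counts (%, counts per kilobase of merged exons) for the 4 AMPA subunits, the 4 Grin2 subunits, and Grin2a of Grin2a plus Grin2b. Points are libraries, PDE5A overexpression in red left of control in blue, with bars for mean ± SD (n = 3). The groups overlap for every share shown, and the order of the subunits is alike in both groups.

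Summed over the family without length scaling, the 4 AMPA genes took 1473 ± 88.1 CPM in overexpression and 1507 ± 72.05 CPM in control. The 6 NMDA genes took 981 ± 61.6 CPM in overexpression and 935 ± 38.0 CPM in control (SD, n = 3 each). Both differences were smaller than the SD within overexpression, but that of the NMDA genes was larger than the SD within control.

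The order of the libraries was alike for several subunits and for the marker levels of cortical and striatal neurons. Overexpression replicate 3 and control replicate 3 had the highest cortical marker levels (6.05 and 5.63 log2 CPM in that order) and were the 2 libraries highest in Grin2a, Grin3a, Gria3 and Gria4. Control replicate 2 had the lowest cortical level (3.30) and was the library lowest in Grin2a, Grin2d and Grin3a and highest in Gria1, Grin2b and Grin2c. Ranked by the Grin2a share of Grin2a plus Grin2b, the 6 libraries fell in the order of their cortical level except for overexpression replicate 2 and control replicate 1, whose levels were 4.96 and 4.99. Medium spiny neuron markers ran the other way, at 8.88, 8.54 and 7.90 log2 CPM in overexpression and 8.47, 8.92 and 8.12 in control.

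Over the 6 libraries, log2 CPM of Gria1 against the cortical level gave a Pearson r of −0.94 (exact permutation p = 0.00972) and a Spearman rho of −0.94 (exact permutation p = 0.0167). Grin3a gave r = 0.93 (exact permutation p = 0.00833) and rho = 0.89 (exact permutation p = 0.0333), and Grin2a gave r = 0.90 (exact permutation p = 0.0208) and rho = 0.83 (exact permutation p = 0.0583). Without the 2 libraries farthest from the median cortical level, overexpression replicate 3 and control replicate 2, r was −0.81 for Gria1, 0.99 for Grin3a and 0.72 for Grin2a. Grin1 showed no such relation, with r = 0.15 and rho = 0.086 (exact permutation p = 0.790 and 0.919). Across the 20 relations computed, 10 genes against each of the 2 marker lists, 7 had an unadjusted exact permutation p of r under 0.05. These were Gria1, Grin2a and Grin3a with both lists, and Gria4 with the medium spiny neuron list. After Benjamini-Hochberg adjustment 0 passed, where the lowest value was 0.0556. Such relations were not computed over all genes tested, so it cannot be said whether the subunits follow these levels more than other genes do. The 2 marker levels were themselves related with r = −0.93 over the 6 libraries, so they cannot be told apart as axes, and all values share the same library scaling. In bulk RNA, fewer cells of a type and less RNA per cell cannot be told apart. With the cortical level as a covariate, 0 of the 10 subunits passed, with log2 fold changes of 5 above 0 and 5 below 0.

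**Figure D4:**
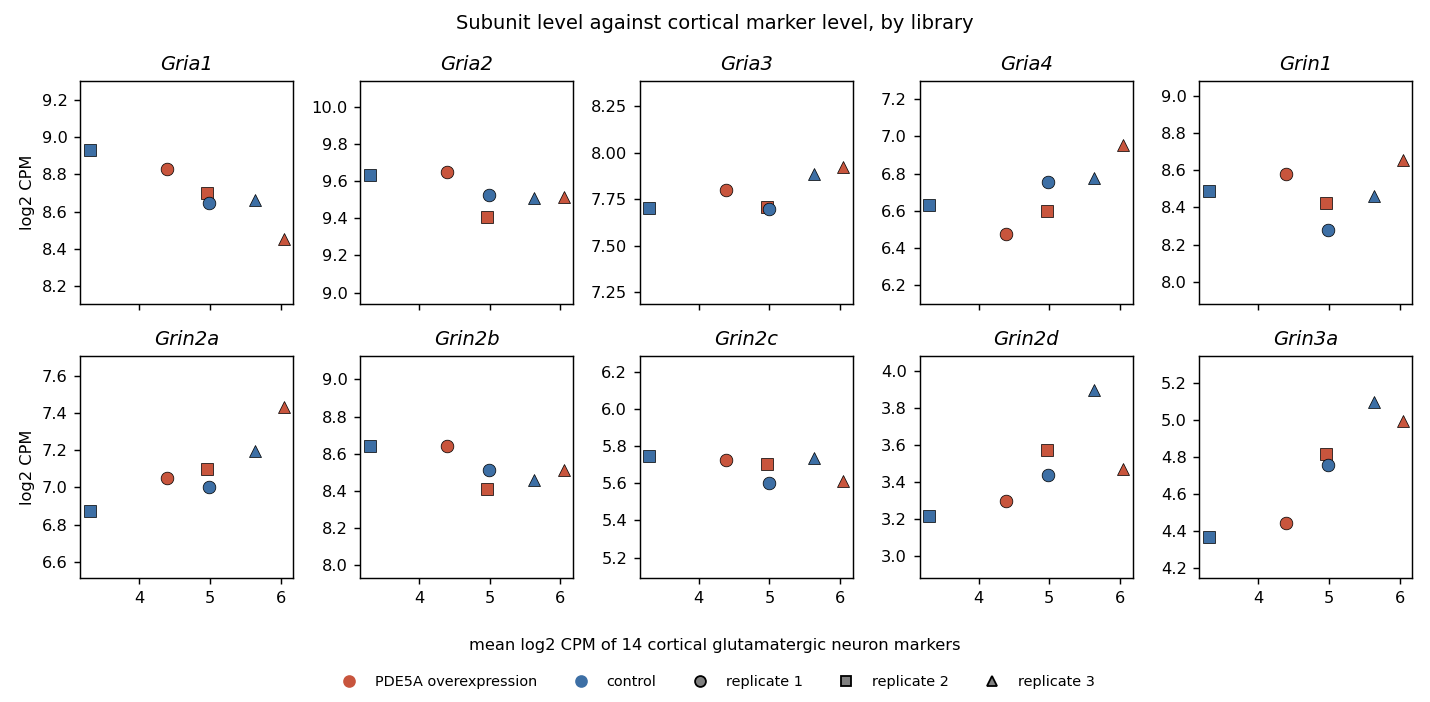
Log2 CPM of each subunit against the mean log2 CPM of 14 cortical glutamatergic neuron markers, 1 point per library (PDE5A overexpression in red, control in blue, shape for the replicate number). Every panel spans the same height in log2 units. Gria1 runs downward (r = −0.94) while Grin3a and Grin2a run upward (r = 0.93 and 0.90), with the groups interleaved.

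By a rule that takes the gene with the highest Pearson r over the 6 libraries among 16033 genes of at least 1 CPM, the gene most like Gria1 was Lrch2 (0.998), that most like Grin2a was St6gal2 (0.993), that most like Grin3a was B3gat3 (0.996), and that most like Gria4 was Mapk9 (0.993). Cnot3 was most like Grin1 (0.991). These values are the highest of many and so describe these libraries only.

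Related genes were taken from lists of the receptors' partners. Over all of them 0 passed the edgeR quasi-likelihood test in either direction. Of 7 kainate and delta receptor subunits, 2 had a fold change above 0 and the median log2 fold change was −0.10. Grik3, a kainate receptor subunit, had the smallest p, at 96.8 ± 9.81 CPM in overexpression and 105 ± 3.66 CPM in control (SD, n = 3 each). Grin3b, which encodes GluN3B, a close relative of GluN3A, was barely present, at 0.684, 0.271 and 0.480 CPM in overexpression and 0.787, 0.756 and 0.594 CPM in control.

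Of 17 auxiliary and assembly proteins of AMPA receptors, 11 had a fold change above 0, with a median of 0.01. Shisa8, a CKAMP-family auxiliary subunit, was the 1 member of 17 at an unadjusted p under 0.05, where 3.89% of all genes were. It had 4.36, 5.08 and 2.91 CPM in overexpression and 2.46, 2.34 and 2.52 CPM in control, so the groups did not overlap, as for 4.81% of all genes in this direction. Its log2 fold change was 0.75 (SE 0.23), with an unadjusted p of 0.0114 and an adjusted p of 0.99996 in edgeR's quasi-likelihood test. Frrs1l, needed for AMPA receptor assembly in the endoplasmic reticulum, had 304 ± 25.2 CPM in overexpression and 276 ± 9.02 CPM in control. The TARP genes Cacng3 and Cacng8, chosen after their values were seen, differed less than their SD, with Cacng3 at 66.3 ± 5.81 CPM in overexpression and 62.0 ± 4.45 CPM in control, and Cacng8 at 42.7 ± 1.59 CPM in overexpression and 42.4 ± 2.59 CPM in control (SD, n = 3 each).

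Of 18 scaffold and trafficking genes, 8 had a fold change above 0 and the median was −0.02. Epb41l1, which encodes the GluA1-binding protein 4.1N, had 533, 485 and 515 CPM in overexpression and 553, 576 and 582 CPM in control. Its overexpression libraries were all below control, as for 4.11% of all genes, with a log2 fold change of −0.16 (SE 0.07) and an unadjusted p of 0.0602. Dlg2, which encodes the scaffold PSD-93, had 421 ± 42.9 CPM in overexpression and 471 ± 20.3 CPM in control (SD, n = 3 each). Of 13 kinases, phosphatases and related signalling genes, 6 had a fold change above 0 and the median was −0.00769.

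The list of RNA editing enzymes, serine racemase and glycine and glutamate transporters had 6 of 7 fold changes below 0 and a median of −0.19, with 0 members past the threshold. Overexpression lay wholly below control for 4 of the 7, as for 4.11% of all genes. Adarb2, which encodes the brain protein ADAR3, had 10.8, 13.0 and 12.4 CPM in overexpression and 19.3, 17.6 and 13.2 CPM in control, a log2 fold change of −0.46 (SE 0.15) with an unadjusted p of 0.0172 and an adjusted p of 0.99996 in edgeR's quasi-likelihood test. Adarb1, which encodes the ADAR2 that edits the Gria2 codon shown above and was chosen after its values were seen, had 151, 172 and 180.7 CPM in overexpression and 200.3, 180.8 and 189 CPM in control, so its groups were apart by less than 1 CPM. The glutamate transporter gene Slc1a2 had 2951 ± 231 CPM in overexpression and 3385 ± 150 CPM in control (SD, n = 3 each). Slc1a3, chosen after its values were seen, had 520 ± 33.6 CPM in overexpression and 591 ± 50.1 CPM in control (SD, n = 3 each). Both transporter genes are among the 4 that lay wholly below control, and both are also among the 11 astrocyte markers. Of the 11 astrocyte fold changes 1 was above 0, with a median of −0.19 and 0 past the threshold. The mean level of those 11 was 7.78, 7.64 and 7.57 log2 CPM in overexpression and 7.84, 7.69 and 7.79 in control, and the part of that level in the transporter values was not tested.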

How the data were processed

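Striatal RNA from 6 samples had been sequenced from strand-specific libraries, per the labels' protocols. The deposited files held unnormalized whole-number counts, 1 sample to a file and 1 row to an Ensembl gene. The submitters' processing notes name mm10 as the build and list STAR 2.5.3a, DESeq 1.16.1, FastQC 0.11.5 and Cuffnorm without their roles. Which program counted the reads, with which strand setting and annotation, is not given in the sources used here. Symbols, coordinates and exon lengths came from GENCODE release M21 for that build, which matched 55154 of 55335 identifiers. Replicates were not repeats of 1 library (chi-square per degree of freedom over genes 19.1 to 49.6).

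Groups came from the sample titles. The 2 groups were compared in R 4.3.3 with edgeR 4.0.16 (TMM, filterByExpr, robust quasi-likelihood F-test, two-sided, Benjamini-Hochberg over 19809 genes, threshold 0.05), and all 10 subunits passed the filter. Standard errors are the absolute log2 fold change over the square root of F, and 95% intervals use the test's degrees of freedom. Log2 CPM used a prior count of 2 for the marker levels and for the search for the most alike genes. The subunit values set against the marker levels were log2 CPM without a prior count. Shares were compared with exact permutation tests. On counts simulated for this comparison over 19473 genes, the test recovered 79 of 100 genes changed 2-fold and 100 of 100 changed 4-fold, with 6 false calls among 185. Smaller changes were not simulated, so these counts give no recovery rate for differences of the size seen in the subunits. In the libraries themselves, the 12 choroid plexus markers had a median log2 fold change of 3.22 and 0 past the threshold.

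Alternatives covered other size factors, tests (DESeq2 1.42.0 and limma 3.58.1) and filters, replicate number as a block, removal of mitochondrially encoded genes, marker levels as covariates, other lengths, and each library left out. Removal of the 2 libraries highest in choroid plexus markers was added after seeing the data. The subunits, lists and tests were chosen with earlier results of these data known. Named genes are all 10 subunits and up to 3 per list by smallest p, and the text marks any other.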

Additional observations from a re-analysis of the deposited data

How the results depend on the processing

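In 17 other settings 0 of the 10 subunits passed the threshold. In 1 of these, which removes overexpression replicates 1 and 2, the libraries with the highest choroid plexus levels, the overexpression arm is replicate 3 alone, so the spread comes from the 3 controls and the lone sample is assumed to vary like them. Across all settings Grin1 and Grin2a kept a fold change above 0, from 0.09 to 0.25 and from 0.04 to 0.40 on the log2 scale, where 0.40 is the value with the lone library. The count of all genes past the threshold, 1 in the reported test, was 83 with the DESeq2 Wald test, 5 with limma-voom, 3 without a filter on low counts, 3 with the replicate block, 6 with the cortical level as a covariate and 5 with that lone overexpression library, and 1 to 2 when 1 library was left out. Deviations from the group means correlated between same-numbered samples for replicate 3 (0.418) but not for replicates 1 (−0.0224) and 2 (0.0329), and overexpression replicates 2 and 3, but not 1, correlated best with their own number. The numbers were therefore not taken to pair the samples. With the block 0 subunits passed.

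The fold changes of the other 8 subunits changed sign in at least 1 setting. That of Grin3a was above 0 with size factors from DESeq2 (0.000836), with upper-quartile factors (0.00433), in the DESeq2 Wald test (0.000907), limma-voom (0.00813), at least 1 CPM in all libraries (0.00195), the replicate block (0.00937), the choroid plexus covariate (0.0815) and with the lone overexpression library (0.22). The cortical covariate gave 0.0205 for Grin2b and 0.00473 for Grin2c. The choroid plexus covariate gave 0.0142 for Gria2, 0.11 for Gria4 and 0.0247 for Grin2b, and Gria4 had 0.23 with the lone overexpression library. When 1 library was left out, log2 fold changes ran from −0.17 to 0.0166 for Gria1, −0.0957 to 0.028 for Gria2, −0.0104 to 0.12 for Gria3, −0.19 to 0.0642 for Gria4, −0.0786 to 0.0404 for Grin2b, −0.0509 to 0.0189 for Grin2c, −0.23 to 0.12 for Grin2d and −0.17 to 0.20 for Grin3a. The cause was not tested.

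Differences in shares, in percentage points and overexpression minus control, ran on leaving out 1 library from −2.52 to 1.2 for Gria1, −0.145 to 0.9998 for Gria2 and −1.14 to 1.14 for Gria4 of the AMPA subunits, from −2.96 to 0.121 for Grin2b, −1.54 to 0.341 for Grin2c and −0.913 to 0.26 for Grin2d of the Grin2 subunits, from −0.538 to 0.0191 for Grin2d and −0.583 to 0.151 for Grin3a of the NMDA subunits, and from −2.25 to 0.739 for Gria1 of Gria1 plus Gria2. Those of Grin2a kept their sign, from 0.611 to 3.65 of the Grin2 subunits and 0.948 to 4.95 of Grin2a plus Grin2b. Of the NMDA subunits, the Grin2a difference ran from 0.000712 to 1.22, so it came close to no difference. Other shares kept their sign too. These were Grin1 (1.35 to 2.83), Grin2b (−2.35 to −0.852) and Grin2c (−1.40 to −0.213) of the NMDA subunits, and Gria3 (0.087 to 1.68) of the AMPA subunits. No share changed direction with another length or the block. Without length scaling, the Grin1 share of the NMDA subunits differed by 1.87 percentage points. Its exact permutation p was then 0.1, the smallest this test can give. With the longest transcript as length, Gria2 held 34.4% of the AMPA subunits in overexpression and 34.3% in control. Counts were fewest for Grin2d and Grin3a, whose 95% intervals were the widest, but Grin2c, with 1736 to 2199 counts, had the narrowest. Whether the number of counts set the widths was not tested.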
